A study of Homo sapiens with 6 samples.

Results

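The genes described here are 9 direct transcriptional targets of p53: MDM2, ZMAT3, AEN, TP53INP1, FAS, TNFRSF10B, XPC, DDB2 and RRM2B. They were chosen by name, with earlier results of these data known. All 9 were found among the 50868 genes of the deposited table, and other well known targets such as CDKN1A, BAX and SESN2 were kept out of the set. RNA was sequenced from CUTLL1, a human cell line grown from a T-cell acute lymphoblastic leukaemia, 48 h after infection with a lentivirus that carried a short hairpin RNA, under puromycin selection. One arm received an shRNA against AURKB, the gene of the mitotic kinase Aurora B (shAURKB), and the other arm a control shRNA named for GFP (shGFP). Each arm held 3 libraries, stated to be biological replicates, and all 6 came from this line, with infection and puromycin selection in both arms. The sources used here do not give the hairpins' sequences, their number or the p53 status of the line. By its title the series is about stabilisation of MYC by Aurora B, and the comparison asks what loss of AURKB mRNA does to the transcriptome, here to the p53 targets.

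p53 is a transcription factor that is kept scarce in unstressed cells and accumulates after DNA damage, nucleolar stress or faulty mitosis. It binds pairs of a short element near its target genes and raises their transcription. The targets limit p53 itself (MDM2), arrest the cell cycle, repair DNA and supply its building blocks (XPC, DDB2, RRM2B), or favour cell death (FAS, TNFRSF10B, AEN, TP53INP1). In thymocytes and leukaemic T cells p53 is best known for driving apoptosis after DNA damage.

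AURKB, the target of the hairpin, was lower in every shAURKB library. Its level was 39.8, 43.9 and 36.0 CPM in shAURKB replicates 1 to 3, against 100.4, 97.0 and 107 CPM in shGFP replicates 1 to 3 (CPM, counts scaled to library size with TMM factors). This was a log2 fold change of -1.35 ± 0.08 (SE), with an adjusted p of 0.000254 by edgeR's quasi-likelihood test and the Benjamini-Hochberg method. Library totals ran from 10154187 to 11922979 counts, and 14818 genes passed the filter on low counts. T-lineage markers were abundant, apart from PTCRA (0 to 1.13 CPM). Their 10 genes summed to 2834 to 2960 CPM in the shAURKB libraries and 2453 to 2579 CPM in the shGFP libraries. Of the 9 tested, 5 (55.6%) were called higher with shAURKB, against 12.5% of all tested genes. The median log2 fold change of the 9 was 0.18. The 5 B-cell markers summed to 22.8 to 27.9 CPM with shAURKB and 23.6 to 27.5 CPM with shGFP. Among these, CD79A had 16.1 to 22.2 CPM and CD79B 3.20 to 7.97 CPM over the 6 libraries. The 5 myeloid markers summed to 0.474 to 0.963 CPM with shAURKB and 0.566 to 1.07 CPM with shGFP. Of the 10 fibroblast and epithelial markers, 3 had no reads in any library; the 10 summed to 0.664 to 1.31 CPM with shAURKB and 0.971 to 26.7 CPM with shGFP, the highest value lying in shGFP replicate 1. The part of these markers in the p53 target values was not tested, and the called members are given below without that library too.

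The promoter stretches of 6 members are shown because p53 acts through its paired element. RefSeq promoter windows (GRCh38.p14, from 250 bases before to 50 bases after a start site) were used for these 6 members only, in 13 windows. Each window was searched for a pair of units of the p53 decamer consensus, each of 10 bases, separated by 0 to 13 bases, on either strand (the consensus reads the same on both). The best pair in each printed stretch is in capitals. MDM2 is shown from its internal promoter upstream of the second start site, with each adjoining pair of at most 3 mismatches in capitals.
MDM2, chr12:68808903-68809001, plus strand: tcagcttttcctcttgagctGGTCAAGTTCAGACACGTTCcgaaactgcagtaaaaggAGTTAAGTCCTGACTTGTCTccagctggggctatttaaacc
AEN, chr15:88621301-88621330, plus strand: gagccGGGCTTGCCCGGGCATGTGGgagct
DDB2, chr11:47214979-47214999, plus strand: GAACAAGCCCtGGGCATGTTT
FAS, chr10:88991304-88991333, plus strand: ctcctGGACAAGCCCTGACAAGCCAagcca
XPC, chr3:14178565-14178594, minus strand: aagtgGAATTTGCCCAGACAAGCAAcatgg
ZMAT3, chr3:179071867-179071892, minus strand: GGGCCTGCTCcgccaaGCACATGCGC

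The MDM2 stretch held 2 adjoining pairs, the first with 2 mismatches to the consensus and the second with 3, separated by 18 bases. It lies before an annotated first exon, inside the first intron of the longer transcripts. The DDB2 pair had 0 mismatches with a spacer of 1 base and began at position 5 after the start site, in the 5′ untranslated region. AEN and FAS each had an exact unit beside a unit with 2 mismatches and no spacer. XPC had 3 mismatches without a spacer, and ZMAT3 had 3 mismatches across a spacer of 6 bases. A pair with at most 2 mismatches was found for 4 of the 6 members, in 6 of their 13 windows. Of 35116 windows of all genes, 7.82% held such a pair. TP53INP1, TNFRSF10B and RRM2B were left out of the windows used and of these counts, so the counts do not cover all members. The MDM2 windows with start sites at 68809017 and 68809024 held the same pair, so the windows are not independent. An exact unit was found for 3 members (AEN, FAS and DDB2), in 3 of the 13 windows, and in 6.63% of all windows. With at most 3 mismatches, 39.1% of all windows held a pair at any of the spacers searched, as ZMAT3 did, and 5.2% held a pair without a spacer, as XPC did. These are matches of letters in short windows and not measured binding, and each gene's sites farther away were not searched.

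Of the 9 members, 3 were called higher with shAURKB (ZMAT3, AEN and TP53INP1; adjusted p below 0.05) and 0 lower, while 6 were not called. Over all 14818 tested genes 12.5% were called higher and 10.9% lower, 23.3% in either direction. TP53INP1 dropped out, leaving 2, without shAURKB replicate 1 or 3 or shGFP replicate 1 or 3. Before adjustment the edgeR test gave MDM2 (higher) a p of 0.0225 and XPC (lower) a p of 0.0135, and neither was called after adjustment. DESeq2 called 2 members higher and 0 lower, with 1536 and 1132 of all tested genes. For limma-voom these were 3 and 0 members, with 1867 and 1598 of all tested genes. Upper-quartile scaling and the 3 FPKM comparisons called 1 lower, XPC. Of all tested genes, upper-quartile scaling called 1325 higher and 2087 lower. The filtered FPKM comparison with a pseudocount of 1 called 1264 higher and 1686 lower. The 3 shAURKB libraries all lay above the 3 shGFP libraries for 4 members and below them for 1, where 21.7% and 20.9% of all tested genes were placed that way. The members' median log2 fold change was 0.13, against -0.004 over all tested genes, and it ran from 0.02 (without shGFP replicate 2) to 0.27 (without shGFP replicate 3) when a library was left out. The members' reads together came to 466 ± 4.65 CPM with shAURKB and 370 ± 5.89 CPM with shGFP (SD, n = 3 each), and ZMAT3 and AEN made up 86.7% of that difference. In RNA from whole cultures, a change in the share of cells that express a gene and a change in RNA per cell cannot be told apart.

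**Figure D1:**
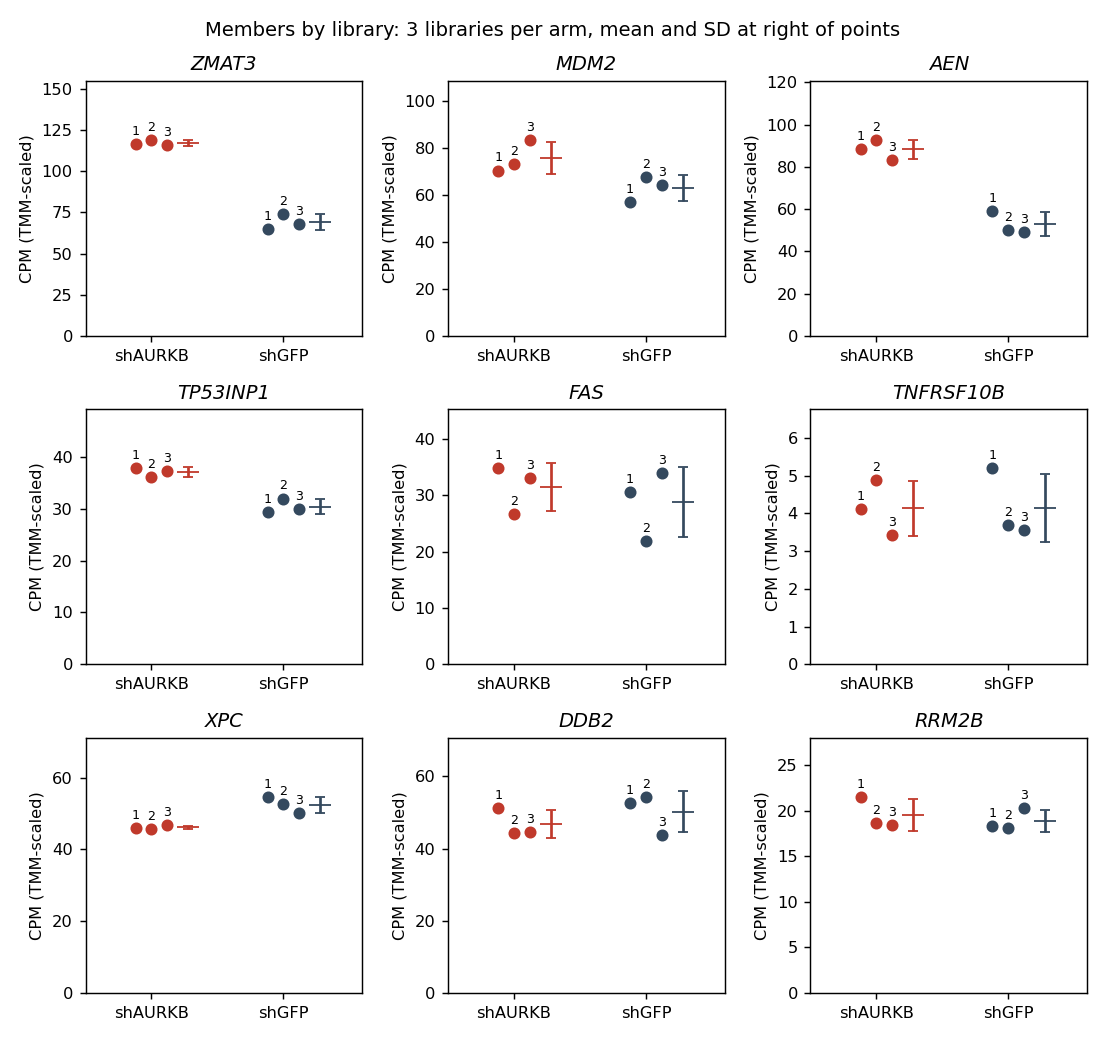
CPM (TMM-scaled, linear axis from 0) of the 9 members in each library; points are libraries, numbered by replicate, and the bar beside them gives the mean and SD of 3 libraries. The arms do not overlap for ZMAT3, MDM2, AEN and TP53INP1 (shAURKB higher) and for XPC (shAURKB lower), and they overlap for the other 4.

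**Figure D2:**
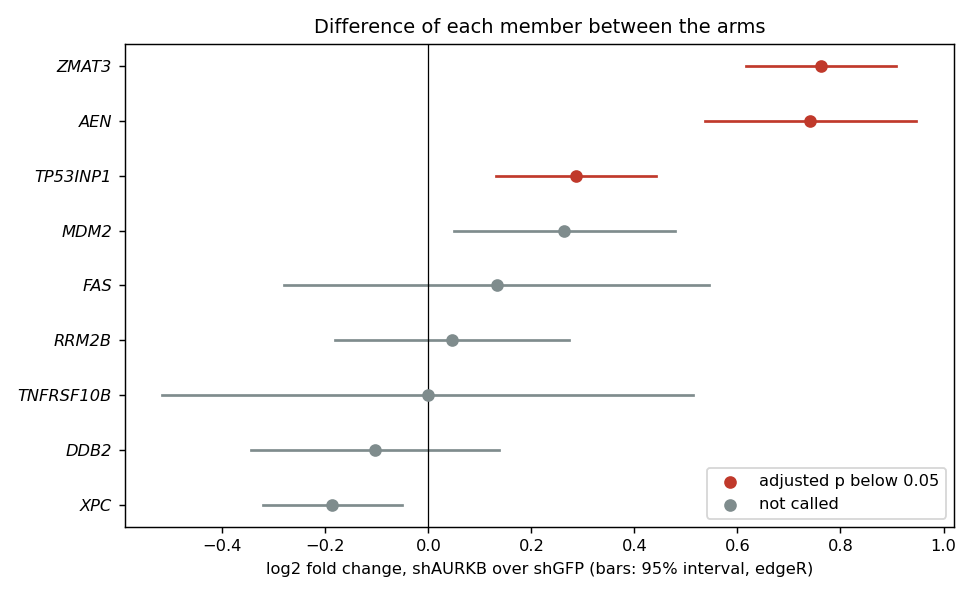
Log2 fold change of each member, shAURKB over shGFP, with its 95% interval from the edgeR fit; called genes are in red. ZMAT3 (0.76) and AEN (0.74) stand apart from TP53INP1 (0.29), and the intervals of FAS, RRM2B, TNFRSF10B and DDB2 span 0.

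Among the regulators that feed back on p53 or act on RNA, ZMAT3 had the largest difference of the set. ZMAT3 (ENSG00000172667, chromosome 3, 179017223 to 179072279, minus strand) encodes a zinc-finger RNA-binding protein that alters splicing and transcript stability as part of p53's tumour-suppressive programme. Its level was 116, 119 and 116 CPM in shAURKB replicates 1 to 3, against 64.7, 74.2 and 68.1 CPM in shGFP replicates 1 to 3. The 3 shAURKB libraries lay within a narrow range, far above the highest shGFP library, which was replicate 2. Its log2 fold change came to 0.76 ± 0.06 (SE), or 1.70-fold with a 95% interval of 1.53 to 1.88 (edgeR adjusted p = 0.000571). By fold change ZMAT3 ranked 191 of 14818 tested genes. The rise was called under all 16 alternatives, at log2 values of 0.63 to 0.82, and was 0.72 without shGFP replicate 1.

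MDM2 (ENSG00000135679, chromosome 12, 68808172 to 68850686, plus strand) encodes the ubiquitin ligase that marks p53 for degradation and is itself induced by p53 through the internal promoter printed above. It had 70.5, 73.4 and 83.5 CPM in shAURKB replicates 1 to 3, against 57.1, 67.8 and 64.5 CPM in shGFP replicates 1 to 3. The lowest shAURKB library lay just above the highest shGFP library, so the arms touched without overlap. With a log2 fold change of 0.26 ± 0.09 (SE), or 1.20-fold with a 95% interval of 1.04 to 1.39, MDM2 missed the threshold (edgeR adjusted p = 0.078). It stayed uncalled under all 16 alternatives, where the adjusted p ran from 0.0707 to 0.35. The table gives 1 count per gene, so reads from the 2 MDM2 promoters cannot be separated.

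Of the genes that promote cell death, AEN and TP53INP1 were called higher, and FAS and TNFRSF10B were not called. Whether these genes differed from each other in their change was not tested. AEN (ENSG00000181026, chromosome 15, 88621296 to 88632282, plus strand) encodes a nuclear exonuclease that cleaves DNA and RNA during apoptosis. Its level was 88.6, 92.8 and 83.4 CPM in shAURKB replicates 1 to 3, against 59.4, 50.1 and 49.0 CPM in shGFP replicates 1 to 3. Every shAURKB library exceeded the highest shGFP library, replicate 1, by a wide margin. The log2 fold change of 0.74 ± 0.09 (SE), or 1.67-fold with a 95% interval of 1.45 to 1.93, was close to that of ZMAT3 (edgeR adjusted p = 0.00208). Over the 16 alternatives the rise was called each time, at log2 values of 0.59 to 0.83, the highest being without shGFP replicate 1.

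TP53INP1 (ENSG00000164938, chromosome 8, 94925972 to 94949411, minus strand) encodes a nuclear and autophagy-linked stress protein that promotes p53 activity and cell death. It had 37.7, 36.0 and 37.3 CPM in shAURKB replicates 1 to 3, against 29.3, 31.9 and 29.8 CPM in shGFP replicates 1 to 3. The libraries of each arm lay close together and the arms did not overlap. The rise was small, at a log2 fold change of 0.29 ± 0.07 (SE), or 1.22-fold with a 95% interval of 1.10 to 1.36 (edgeR adjusted p = 0.0222). The call was lost without shAURKB replicate 1 or 3 and without shGFP replicate 1 or 3 (adjusted p = 0.0591 to 0.064), and over all alternatives the adjusted p ran from 0.0206 to 0.0672. The whole span of TP53INP1 lies within NDUFAF6 on the other strand, which had a log2 fold change of -0.20 ± 0.07 (edgeR adjusted p = 0.0779). Since no source used here states whether counting used strand, reads of these genes cannot be told apart. The same limit holds for MDM2 beside RP11-611O2.5, at a log2 fold change of 0.36 ± 0.16 (edgeR adjusted p = 0.167). It also holds for FAS beside ACTA2, at -0.33 ± 0.18 (adjusted p = 0.235). MDM2 further shares 8490 bases with the gene named CPM on the other strand, at 0.24 ± 0.15 with 32 to 43 reads (adjusted p = 0.363). TNFRSF10B shares 67 bases with RHOBTB2 on the other strand, at -0.22 ± 0.13 with 94 to 137 reads (adjusted p = 0.274).

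The death receptor genes FAS and TNFRSF10B showed no difference that passed the test. FAS (ENSG00000026103, chromosome 10, 88990531 to 89015785, plus strand) encodes the receptor for Fas ligand, through which activated T cells are eliminated. Its level was 34.8, 26.7 and 33.1 CPM in shAURKB replicates 1 to 3, against 30.5, 21.8 and 33.9 CPM in shGFP replicates 1 to 3. In each arm replicate 2 was the lowest, and the arms overlapped. The log2 fold change was 0.13 ± 0.17 (SE), with a wide 95% interval of -0.28 to 0.54 (edgeR adjusted p = 0.628). Its sign turned to -0.03 without shGFP replicate 2. As a fold the 95% interval of FAS was 0.82 to 1.46, which holds the 1.22-fold of TP53INP1, so a rise of that size is not excluded.

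TNFRSF10B (ENSG00000120889, chromosome 8, 23020133 to 23069179, minus strand) encodes DR5, a receptor for the death ligand TRAIL. It was the least abundant member, with 47, 50 and 36 reads in shAURKB replicates 1 to 3, against 55, 38 and 43 reads in shGFP replicates 1 to 3. These counts correspond to 4.12, 4.88 and 3.41 CPM with shAURKB and 5.19, 3.69 and 3.55 CPM with shGFP, and the arms overlapped fully. The log2 fold change was 0.00 ± 0.22 (SE; edgeR adjusted p = 0.998). The 95% interval of the fold, 0.70 to 1.43, holds the 1.22-fold of TP53INP1, so a rise of that size is not excluded.

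In DNA repair and nucleotide supply no member was called. XPC (ENSG00000154767, chromosome 3, 14145147 to 14178783, minus strand) encodes the damage sensor that opens nucleotide excision repair across the genome. Its level was 45.9, 45.7 and 46.7 CPM in shAURKB replicates 1 to 3, against 54.6, 52.5 and 50.2 CPM in shGFP replicates 1 to 3. All shAURKB libraries lay below all shGFP libraries, the only member placed so. The log2 fold change was -0.19 ± 0.06 (SE), or 0.88-fold with a 95% interval of 0.80 to 0.96, and it missed the threshold narrowly (edgeR adjusted p = 0.0554). XPC was called lower with upper-quartile scaling (log2 fold change -0.24, adjusted p = 0.0257) and in the comparisons of deposited FPKM (log2 differences of -0.23 to -0.21, limma adjusted p = 0.0269 to 0.0388), and not in the other 12 alternatives. XPC shares 426 bases with LSM3 on the other strand, which had a log2 fold change of 0.20 ± 0.07 (edgeR adjusted p = 0.068). On that strand it also shares 20832 bases with AC093495.4, at a log2 fold change of -0.82 ± 0.31 with 11 to 33 reads (adjusted p = 0.0994), and 3106 bases with RP11-434D12.1, at 0.69 ± 0.46 with 7 to 46 reads (adjusted p = 0.32).

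DDB2 (ENSG00000134574, chromosome 11, 47214465 to 47239240, plus strand) encodes the subunit of the UV-damage binding complex that hands lesions to XPC. It had 51.2, 44.3 and 44.7 CPM in shAURKB replicates 1 to 3, against 52.6, 54.4 and 43.9 CPM in shGFP replicates 1 to 3. The lowest library of all was shGFP replicate 3, and the arms overlapped. With a log2 fold change of -0.10 ± 0.10 (SE, 95% interval -0.34 to 0.14), DDB2 did not pass (edgeR adjusted p = 0.503). DDB2 held the only pair in the printed set that matched the p53 consensus at every base. A link between match and difference was not tested.

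RRM2B (ENSG00000048392, chromosome 8, 102204502 to 102239118, minus strand) encodes the p53-inducible small subunit of ribonucleotide reductase, which supplies deoxynucleotides for repair and for mitochondrial DNA outside S phase. Its level was 21.5, 18.6 and 18.5 CPM in shAURKB replicates 1 to 3, against 18.3, 18.2 and 20.3 CPM in shGFP replicates 1 to 3. A single library of each arm, shAURKB replicate 1 and shGFP replicate 3, lay above the rest, and the arms overlapped. The log2 fold change of 0.05 ± 0.10 (SE; 95% interval -0.18 to 0.27) did not pass (edgeR adjusted p = 0.766), and it turned to -0.01 with upper-quartile scaling. Of the S-phase subunits of the same enzyme, RRM1 had a log2 fold change of 0.05 ± 0.04 and RRM2 of -0.07 ± 0.05, and neither passed (edgeR adjusted p = 0.438 and 0.287).

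Levels between members were compared per transcript length, in the authors' FPKM (fragments per kilobase, scaled to library size). With shAURKB, ZMAT3 was the most abundant member at 9.61 ± 0.16 FPKM, followed by AEN (7.44 ± 0.41 FPKM), XPC (7.20 ± 0.06 FPKM), TP53INP1 (6.16 ± 0.15 FPKM), DDB2 (4.06 ± 0.34 FPKM), FAS (3.61 ± 0.48 FPKM), MDM2 (2.77 ± 0.24 FPKM), RRM2B (1.91 ± 0.17 FPKM) and TNFRSF10B (0.50 ± 0.09 FPKM; SD, n = 3). Neighbours in this order did not overlap, except AEN with XPC and DDB2 with FAS. With shGFP, XPC led at 8.49 ± 0.36 FPKM, before ZMAT3 (5.87 ± 0.41 FPKM), TP53INP1 (5.23 ± 0.24 FPKM), AEN (4.61 ± 0.50 FPKM), DDB2 (4.52 ± 0.51 FPKM), FAS (3.41 ± 0.74 FPKM), MDM2 (2.39 ± 0.21 FPKM), RRM2B (1.92 ± 0.12 FPKM) and TNFRSF10B (0.52 ± 0.11 FPKM; SD, n = 3). There TP53INP1, AEN, DDB2 and FAS overlapped from each to the next. The order of the lower 5 members was thus the same in both arms, and the top 4 places were held by the same 4 genes in another order.

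The wider set of p53 targets was described from a list of 60 genes outside the members, chosen with earlier results known, of which 50 were tested. Of these 18 were called higher (36%) and 5 lower (10%), against 12.5% and 10.9% of all tested genes. The other 27 were not called, and the median log2 fold change of the 50 was 0.20. PHLDA3, an inhibitor of AKT signalling, was at 9.63, 16.5 and 12.2 CPM in shAURKB replicates 1 to 3, against 5.95, 7.09 and 5.95 CPM in shGFP replicates 1 to 3. Its rise was 1.01 ± 0.21 in log2 units (SE; edgeR adjusted p = 0.016), a call lost without shGFP replicate 1 or 3 (adjusted p = 0.053 and 0.0537; 0.00125 to 0.0749 over the alternatives). RPS27L, a ribosomal protein paralogue tied to p53 turnover, rose by 0.95 ± 0.08 (adjusted p = 0.000712), to 45.2 ± 4.04 CPM with shAURKB against 23.5 ± 0.49 CPM with shGFP (SD, n = 3 each); reads shared with its paralogue RPS27 cannot be told apart.

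Well known targets outside the members were called in both directions, and others were not called. The 27 uncalled genes of the list included BBC3 (0.14 ± 0.15), PMAIP1 (-0.32 ± 0.19) and GADD45A (0.02 ± 0.39), named after their values were seen (log2 fold change ± SE). Their edgeR adjusted p was 0.568, 0.266 and 0.984. CDKN1A, which encodes the cell cycle inhibitor p21, had a log2 fold change of 0.62 ± 0.13 (edgeR adjusted p = 0.0171), a call lost without shAURKB replicate 2 or 3 or shGFP replicate 3 (adjusted p = 0.0542 to 0.0562; 0.0143 to 0.0843 over the alternatives). BAX, the pore-forming apoptosis protein, had 67.2, 68.6 and 65.7 CPM in shAURKB replicates 1 to 3, against 41.5, 37.5 and 38.3 CPM in shGFP replicates 1 to 3, a log2 fold change of 0.78 ± 0.06 (edgeR adjusted p = 0.000529). It lay beside ZMAT3 and AEN in size. SESN2, a stress-induced brake on mTORC1, had a log2 fold change of -2.08 ± 0.07 (edgeR adjusted p = 7.57e-05), and BTG2, an antiproliferative cofactor of mRNA decay, one of -1.93 ± 0.19 (adjusted p = 0.00113). With 1 library left out at a time, fewer of the list's tested genes were called higher than the 18 with all 6 libraries. The number was 11 when shAURKB replicate 1, 2 or 3 or shGFP replicate 1 was the library left out. It was 14 without shGFP replicate 2 and 8 without shGFP replicate 3.

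**Figure D3:**
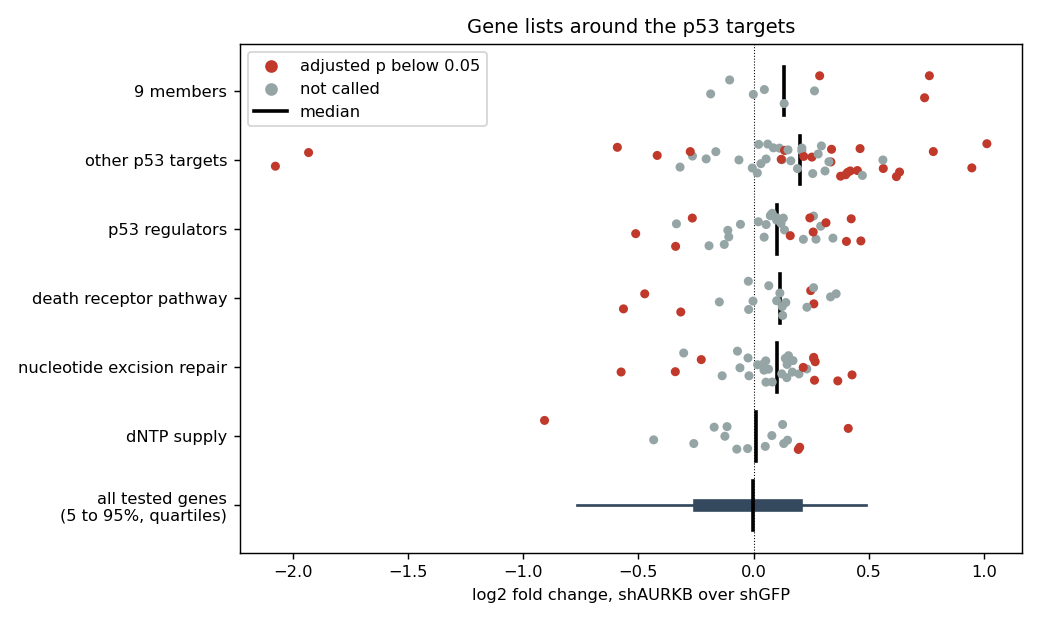
Log2 fold change, shAURKB over shGFP, of the tested genes in each list, with medians as black bars and called genes in red; the lowest row gives the 5th to 95th percentile (-0.76 to 0.49), the quartiles and the median of all 14818 tested genes. ZMAT3 and AEN lie beyond the 95th percentile of all tested genes, and SESN2 and BTG2 form the far left of the other p53 targets.

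Regulators of p53 itself, its kinases, ligases and cofactors, were described from a list of 33 genes, of which 32 were tested. Here 7 were called higher (21.9%) and 3 lower (9.38%), against 12.5% and 10.9% of all tested genes. The median log2 fold change of the 32 was 0.10, and FPKM without a filter gave 2 of them higher and 3 lower. Of the calls over all genes, 44% were higher in FPKM without a filter, against 53.4% with TMM and edgeR. USP10, a deubiquitinase that stabilises p53, rose by 0.47 ± 0.11 and TP53BP2, the p53-binding protein ASPP2, by 0.42 ± 0.10 in log2 units (edgeR adjusted p = 0.0209 and 0.0248). The USP10 call was lost without shAURKB replicate 1 or 3 or shGFP replicate 1 or 2 (adjusted p = 0.057 to 0.0589). The TP53BP2 call was lost without shAURKB replicate 2 or 3 or shGFP replicate 1 or 3 (adjusted p = 0.0577 to 0.077). Over the alternatives the adjusted p ran from 0.00152 to 0.0891 for USP10 and from 0.00362 to 0.101 for TP53BP2. CNOT6L, a deadenylase subunit, fell by 0.51 ± 0.06, and ATM, the DNA-damage kinase that phosphorylates p53, fell by 0.34 ± 0.04 on the log2 scale (adjusted p = 0.00164 and 0.00148). ATM was at 151, 157 and 153 CPM in shAURKB replicates 1 to 3, against 194, 193 and 197 CPM in shGFP replicates 1 to 3, so its arms were well separated. The count called higher was 4 without shAURKB replicate 3 and 5 or 6 when 1 of the other libraries was left out.

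In the pathway downstream of FAS and TNFRSF10B, 19 of 24 listed genes were tested. Of these 2 were called higher (10.5%) and 3 lower (15.8%), against 12.5% and 10.9% of all tested genes. The median log2 fold change of the 19 was 0.11, and -0.01 without shAURKB replicate 2. No gene was called higher without shGFP replicate 2 or 3 and 1 without shAURKB replicate 2 or 3 or shGFP replicate 1, and 1 was called lower without shAURKB replicate 2 or 3. BIRC3, an inhibitor of apoptosis, fell by 0.56 ± 0.10 on the log2 scale, to 23.5 ± 2.65 CPM with shAURKB against 34.8 ± 2.06 CPM with shGFP (SD, n = 3 each; edgeR adjusted p = 0.00884). FAIM, an inhibitor of FAS-mediated death, fell by 0.47 ± 0.12 (adjusted p = 0.0329), TRAF2, an adaptor, rose by 0.26 ± 0.06 (adjusted p = 0.019), and BID, the link to the mitochondrial route, rose by 0.25 ± 0.06 (adjusted p = 0.0219). The last 3 calls were fragile. FAIM was lost without any single library other than shAURKB replicate 1 (adjusted p = 0.0612 to 0.0992), BID likewise (0.0508 to 0.0625), and TRAF2 without shAURKB replicate 2 or shGFP replicate 2 or 3 (0.0525 to 0.062). Over the alternatives the adjusted p ran from 0.0236 to 0.0992 for FAIM, 0.0205 to 0.0994 for BID and 0.0181 to 0.062 for TRAF2.

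The repair pathway that XPC and DDB2 serve was described from 32 genes, all tested. Of these 7 were called higher (21.9%) and 3 lower (9.38%), against 12.5% and 10.9% of all tested genes. The median log2 fold change of the 32 was 0.10. With upper-quartile scaling 5 were higher and 5 lower, and in the filtered FPKM comparisons 4 were higher and 4 (pseudocount 1) or 5 (pseudocount 0.1) lower. Of the calls over all tested genes, 38.8%, 42.8% and 43.4% were higher under these 3 settings, against 53.4% with TMM and edgeR. GTF2H2, a TFIIH subunit with near-identical gene copies among which reads may be shared, rose by 0.43 ± 0.05 and XAB2, an XPA-binding splicing protein, by 0.37 ± 0.05 in log2 units (edgeR adjusted p = 0.00175 and 0.00377). UVSSA, which stabilises the transcription-coupled repair machinery, fell by 0.58 ± 0.15 (edgeR adjusted p = 0.0309). Its call was lost when any 1 of the shAURKB libraries was left out (adjusted p = 0.0714 to 0.0892). Over the alternatives its adjusted p ran from 0.0124 to 0.123. CUL4B, a scaffold of the ligase that carries DDB2, fell by 0.34 ± 0.06 (adjusted p = 0.00844), while its paralogue CUL4A rose by 0.26 ± 0.05 (adjusted p = 0.00859; chosen after its values were seen). The count called higher was 4 without shAURKB replicate 2 or shGFP replicate 2, and the count called lower was 1 without shAURKB replicate 3.

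Deoxynucleotide supply around RRM2B was described from 16 genes, all tested. Of these 3 were called higher (18.8%) and 1 lower (6.25%), against 12.5% and 10.9% of all tested genes. The balance turned to 1 higher and 3 lower with upper-quartile scaling and in both filtered FPKM comparisons. The calls over all tested genes shifted too: 38.8% of them were higher with upper-quartile scaling. In the filtered FPKM comparisons 42.8% (pseudocount 1) and 43.4% (pseudocount 0.1) were higher, against 53.4% with TMM and edgeR. The median log2 fold change was 0.01 (-0.04 with upper-quartile scaling and without shAURKB replicate 3). Without shAURKB replicate 1 or shGFP replicate 1 or 3 only 1 was called higher, and without shGFP replicate 1, 2 were called lower. TK2, the mitochondrial thymidine kinase, fell by 0.91 ± 0.11, to 10.5 ± 1.22 CPM with shAURKB against 19.7 ± 0.46 CPM with shGFP (SD, n = 3 each; edgeR adjusted p = 0.00214). The nucleoside diphosphate kinase genes NME1 and NME2 rose by 0.41 ± 0.06 and 0.20 ± 0.04 (adjusted p = 0.00588 and 0.0189). They are neighbouring near-copies whose reads may be shared. The NME2 call was lost without any single library other than shAURKB replicate 3 or shGFP replicate 2 (adjusted p = 0.052 to 0.0629; 0.0188 to 0.0959 over the alternatives).

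The genes whose profile over the 6 libraries was most like the members' mean standardised log2 CPM were SUZ12, PTGES3P1, OCIAD2, SBNO1 and TKT, with Pearson's r of 0.993, 0.991, 0.990, 0.988 and 0.987 among 9441 genes of at least 10 CPM. These values describe 6 libraries in 2 arms, so any gene that differs between the arms with a like spread scores high. SUZ12 had 163 ± 8.33 CPM with shAURKB and 142 ± 2.84 CPM with shGFP, and TKT had 553 ± 29.3 CPM with shAURKB and 476 ± 10.4 CPM with shGFP (SD, n = 3 each).

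**Figure D4:**
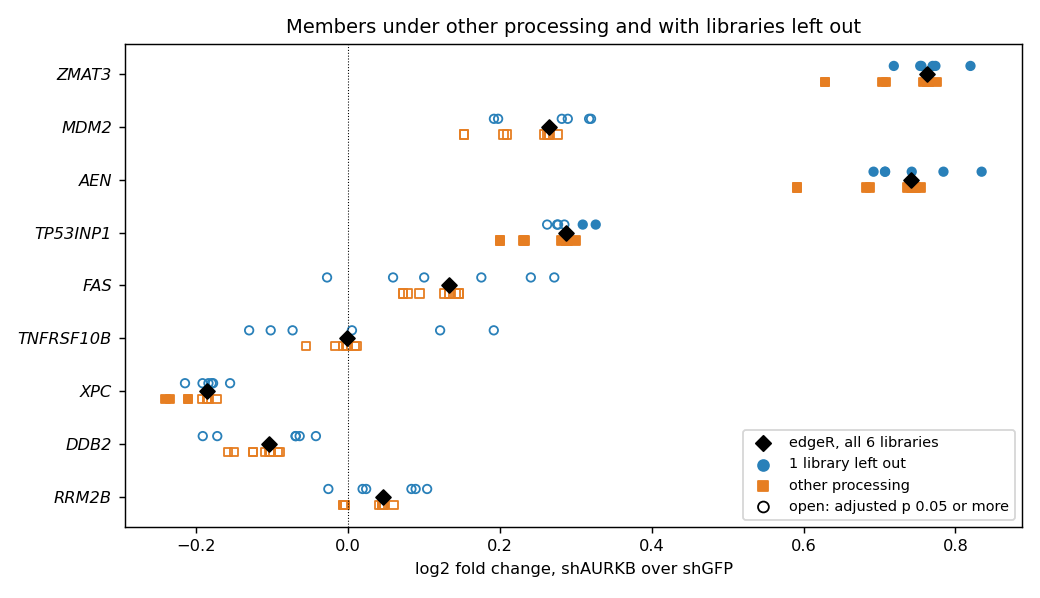
Log2 fold change of each member, shAURKB over shGFP, with all 6 libraries (black diamonds), with 1 library left out (blue circles) and under other processing (orange squares); filled circles and squares have an adjusted p below 0.05, open ones 0.05 or more. ZMAT3 and AEN are filled throughout (0.59 to 0.83), MDM2 has open circles and squares throughout (0.15 to 0.32), and TP53INP1 and XPC hold both kinds.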

How the data were processed

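RNA-seq of 6 CUTLL1 cultures (3 shAURKB, 3 shGFP) was grouped by sample title. Whole-number counts and FPKM of each Ensembl gene were deposited by the authors; HISAT2 2.0.4, StringTie 1.3.0 and edgeR on GRCh38 are named per the submitters' processing notes, without the tools' roles, and no source used here gives the strand setting or the rule for multi-mapping reads. Low counts were removed with filterByExpr (at least 10 counts, 15 in total), and the rest was scaled by TMM and tested with edgeR 4.0.16 (R 4.3.3) by the two-sided quasi-likelihood test between arms, with Benjamini-Hochberg adjustment over 14818 genes and a threshold of 0.05. SE is the log2 fold change divided by the root of the F statistic. Library totals were 10154187 to 11922979 counts, and intervals are 95%. The test was checked on simulated data. Replicates of an arm differed well beyond sampling noise (chi-square per degree of freedom 6.74 to 7.61). Cultures are called biological replicates in the series' text. Alternatives used DESeq2 1.42.0, limma 3.58.1, other scalings and filters, FPKM with pseudocounts of 1 and 0.1 (minimum 0.5 FPKM in 3 libraries, or none), the replicate number as a block, and each library left out. Promoter windows are RefSeq's; overlaps used GENCODE. The members and lists were chosen with earlier results of these data known. The rule names all members, CDKN1A, BAX, SESN2 and AURKB, up to 2 called genes per direction and list with the largest change, and 5 genes by profile. The gene of p53 itself is not reported here.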

Additional observations from a re-analysis of the deposited data

How the results depend on the processing

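ZMAT3 and AEN kept their call and MDM2, FAS, DDB2, TNFRSF10B and RRM2B stayed uncalled under every alternative run. With 1 library left out, the genes called numbered 1271 to 1336 higher and 998 to 1056 lower (1847 and 1609 with all 6), the members called higher 2 or 3 and lower 0, and the other p53 targets 8 to 14 higher and 4 or 5 lower. The paired fit with the replicate block gave 1286 genes higher and 1027 lower, 9 of the other p53 targets higher, and TP53INP1 at an adjusted p of 0.0672; deviations of same-numbered libraries were not positively correlated (r = -0.08, -0.04 and -0.03), so the number names a library only. XPC made 1 member lower with upper-quartile scaling and in the 3 FPKM comparisons. FPKM gave 10 of the other targets higher with the filter at either pseudocount, and 7 without the filter, where 914 genes in all were higher. The share of calls that were higher was 38.8% under upper-quartile scaling, where TMM gave 53.4%. DESeq2 did not call TP53INP1 (adjusted p = 0.0559), nor did FPKM without a filter (0.0612). Signs turned for values near 0: RRM2B was at -0.007 with upper-quartile scaling, -0.0038 and -0.0061 in FPKM and -0.026 (without shAURKB replicate 1) to 0.10 (without shGFP replicate 3) with 1 library left out. TNFRSF10B was at 0.0084 with limma-voom, 0.011 without a filter and -0.13 (without shAURKB replicate 2) to 0.19 (without shGFP replicate 1) with 1 library left out. FAS was at -0.028 (without shGFP replicate 2) to 0.27 (without shGFP replicate 3). The cause of these shifts was not tested. TNFRSF10B had 36 to 55 reads and fell under the FPKM filter.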
